A study of Mus musculus with 12 samples.

Results

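The copying and reading of the mitochondrial genome in mouse gastrocnemius, a calf muscle, was followed through 8 genes of 19437 on the array: Tfam, Tfb1m, Tfb2m, Polrmt, Polg, Polg2, Ssbp1 and Top1mt. They were chosen by symbol, as the nuclear genes of the core machinery that replicates and transcribes mitochondrial DNA, and 14 probes measured them. The RNA came from male mice, 12 week old, of the mixed strain C57BL6/J x sv129, and was read on 12 Agilent arrays of 2 dyes each. PGC-1alpha -/- mice lacked the coactivator PGC-1alpha in the whole body. In PGC-1betaf/f/Mlc1fCre mice a Cre transgene under the Mlc1f promoter, active in muscle fibres, deleted the floxed PGC-1beta gene, so other cells of the muscle keep it. PGC-1alpha-/- beta f/f/Mlc1fCre mice combined both changes, and PGC-1beta f/f mice, with the floxed gene and no Cre, were the controls. By title, each knockout was hybridised together with floxed control RNA on 3 arrays, called alpha, beta and double arrays after the knockout. On 3 more, the direct arrays, RNA of the double knockout met that of the alpha knockout; every array carries its replicate number. Values are log2 of the Cy5 over the Cy3 signal, centred on the median of each array, with the knockout (the double knockout on direct arrays) in Cy5 on every array.

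Mitochondrial DNA is a small circular genome that encodes core subunits of the respiratory chain, while every protein that copies or reads it is encoded in the nucleus. Transcription starts when the packaging protein TFAM bends the promoter and recruits the RNA polymerase POLRMT with its cofactor TFB2M; DNA polymerase gamma, made of POLG and its accessory subunit POLG2, copies the genome with the single-strand binding protein SSBP1, and TOP1MT relaxes its supercoils. PGC-1 coactivators are known to act on such genes through nuclear respiratory factors, among them NRF-1 and the ETS-family factor GABP, and TFAM is a textbook target of that route.

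Promoter sequence is shown first because most of the members with a sequence share a letter pattern there that the choice of genes did not use. RefSeq's table for GRCm38.p6 held 7 of the 8 genes, and the 250 bases before 1 transcription start of each are used here, 5′ to 3′ on the strand of the gene. By the gene spans given below, the windows of Polg and Tfam lie wholly inside the gene, so the start used there is not the outermost. Capitals mark CCGGAAG, the core that ETS factors such as GABP bind, and GGGCGG, the core of Sp1 sites, on either strand (CTTCCGG and CCGCCC when reversed). Shown are Tfam at chr10:71238045-71238294, Polrmt at chr10:79746582-79746831, Polg at chr7:79466274-79466523 and Tfb2m at chr1:179546277-179546526, all on the minus strand, because the values below turn on them or set them apart.
Tfam: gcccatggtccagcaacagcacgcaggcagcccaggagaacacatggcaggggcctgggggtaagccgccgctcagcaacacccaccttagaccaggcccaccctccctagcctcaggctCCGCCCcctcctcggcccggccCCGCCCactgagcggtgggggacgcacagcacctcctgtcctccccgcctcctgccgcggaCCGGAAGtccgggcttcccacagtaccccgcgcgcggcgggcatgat
Polrmt: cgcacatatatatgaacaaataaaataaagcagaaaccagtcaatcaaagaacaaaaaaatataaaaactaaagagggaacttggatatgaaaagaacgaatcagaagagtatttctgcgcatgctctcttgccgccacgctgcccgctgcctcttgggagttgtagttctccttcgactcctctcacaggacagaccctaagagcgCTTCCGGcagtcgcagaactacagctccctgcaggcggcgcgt
Polg: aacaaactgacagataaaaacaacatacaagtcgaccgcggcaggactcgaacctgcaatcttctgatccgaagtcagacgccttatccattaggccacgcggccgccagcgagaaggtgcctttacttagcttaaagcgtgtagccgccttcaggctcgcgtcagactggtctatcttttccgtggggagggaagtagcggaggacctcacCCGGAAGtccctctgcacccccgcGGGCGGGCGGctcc
Tfb2m: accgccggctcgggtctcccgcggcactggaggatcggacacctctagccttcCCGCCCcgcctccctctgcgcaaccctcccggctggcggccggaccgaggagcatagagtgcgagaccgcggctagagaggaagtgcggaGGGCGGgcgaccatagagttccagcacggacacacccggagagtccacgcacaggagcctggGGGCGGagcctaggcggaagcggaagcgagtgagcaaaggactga
The ETS letters occurred in 5 of the 7 windows, with 1 match each in Tfam, Polrmt, Polg, Polg2 and Ssbp1, and in neither Tfb1m nor Tfb2m, against 6.91% of all 32851 promoter windows. Sp1 letters occurred 3 times in Tfb2m, 2 times in Tfam and in Polg (in Polg the matches overlap), and 1 time in Tfb1m and in Ssbp1, against 32.7% of all windows with any match. The NRF-1 core CGCANGCG (6.76% of all windows) and the estrogen-related receptor letters AAGGTCA (4.08%) matched none of the 7. Polrmt and Polg2 held no Sp1 match. The letters were chosen after the windows had been seen, and a match is a description of sequence, not a binding site. The share over all windows was not matched for base composition. GC content ran from 46.8% (Polrmt) to 72.0% (Tfam) in the windows of the members, against a median of 52.4% over all windows.

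Before the results, several facts bear on all of them. The genotype given for the channel and the title disagree on 6 of the 12 arrays. The titles were used here because they follow the authors' own grouping, which does not settle which RNA was on those 6 arrays. The means in the authors' deposited tables equal the means of the title groups for 100% of the probes listed there. Those tables' beta means do so only without beta 3, an array that correlated at -0.39 with alpha 1 and -0.40 with beta 1 over genes; it was left out, leaving 11 arrays, and statements on groups and on every array cover these 11 unless beta 3 is named. Over all probes these correlations were -0.44 and -0.44, and double 3 was at -0.33 with alpha 1 and -0.31 with beta 1. The labels state the dyes of every array, so the directions were kept as labelled. The limma fit tested 16526 genes. It called 1292 on the alpha arrays (941 up, 351 down), 0 on the beta arrays (2290 at an unadjusted p under 0.05), 69 on the double arrays and 1137 on the direct arrays (339 up, 798 down). Without centring the calls split into 13 up and 75 down on the alpha and 60 up and 676 down on the direct arrays, as the median gene moved from 0.05 to -0.13 and from -0.12 to -0.55. With beta 3 kept, limma called 0 genes in every comparison (2376 at an unadjusted p under 0.05 on the alpha and 2677 on the direct arrays), so the calls depend on how that array is treated. Ppargc1a, which encodes PGC-1alpha, was at -1.14, -2.40 and -1.11 on the alpha arrays (mean -1.55, adjusted p = 0.0278) and at -0.54, -1.97 and -1.43 on the double arrays (mean -1.31, adjusted p = 0.141). Ppargc1b, which encodes PGC-1beta, was at 0.97 and 1.02 on beta 1 and beta 2, titled as its knockout, and at -1.27 on beta 3. On the double arrays, also titled as lacking it, Ppargc1b was at 0.69, 0.29 and -0.10 (mean 0.29). Whether its probes read the deleted exons cannot be told from the labels, and the loss of PGC-1beta on beta and double arrays rests on the titles. Probes whose ratio was undefined or a fraction of whole numbers up to 10 on at least 9 arrays lay low on alpha 1, 2 and 3 (medians -1.62, -0.84 and -0.73) and high on direct 1, 2 and 3 (1.06, 0.83 and 2.83), and the part of that trend in the results was not tested. No dye swap was made, the labels do not say that the arrays of a group come from separate mice, and a ratio tested against 0 leaves out the spread between controls. In whole muscle, fewer cells of a type and less RNA per cell cannot be told apart, and ratios give no level of a gene.

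As a group, the 8 genes lay above the median gene on the alpha and beta arrays, and only Polg passed the test. On the direct arrays they lay below it, a direction that turned when ratios that were fractions of small whole numbers were left out, which also dropped Polg. On the alpha arrays 7 of 8 were above 0 with a median of 0.53, against a median of 0.05 and 52.7% above 0 over all genes. On the beta arrays 7 of 8 were above 0 with a median of 0.56 (all genes 0.04, 52.3%). On the double arrays 4 of 8 were above 0 with a median of -0.02 (all genes -0.03, 48.2%), and on the direct arrays 2 of 8 with a median of -0.32 (all genes -0.12, 43.8%). Without the small-fraction ratios, 7 of the 8 could be tested, and Polg, at -0.98 on the direct arrays, could not. Of these 7, 5 were above 0 on the alpha arrays with a median of 0.36 (all genes 0.10, 55.4%). On the beta arrays 6 of 7 were, with a median of 0.23 (all genes 0.05, 53.2%). On the direct arrays 4 of 7 were above 0 with a median of 0.0103 (all genes -0.15, 40.8%), and on the double arrays 2 of 7 with a median of -0.29 (all genes -0.03, 47.6%). The part of the loss of Polg in the turn on the direct arrays was not tested. In the limma fit across all genes 1 of 8 passed on the alpha arrays, where 7.82% of all genes did. None passed on the beta arrays (0% of all genes; 2 of 8 at an unadjusted p under 0.05), on the double arrays (0.418%; 1 of 8 unadjusted) or on the direct arrays (6.88%; 2 of 8 unadjusted). Without double 3 the double means were -0.17 for Tfam, -0.21 for Tfb1m, -0.05 for Tfb2m, 0.15 for Polg2, 0.30 for Polrmt, -0.10 for Ssbp1 and 0.48 for Top1mt, and none passed. On simulated data the same fit recovered 51% of alpha changes of 2 on the log2 scale and 6% of those of 1. It made 61 alpha calls there, against 1292 in the real fit. The adjusted threshold was thus stricter in the simulation, and these shares do not give the recovery of the real fit.

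**Figure D1:**
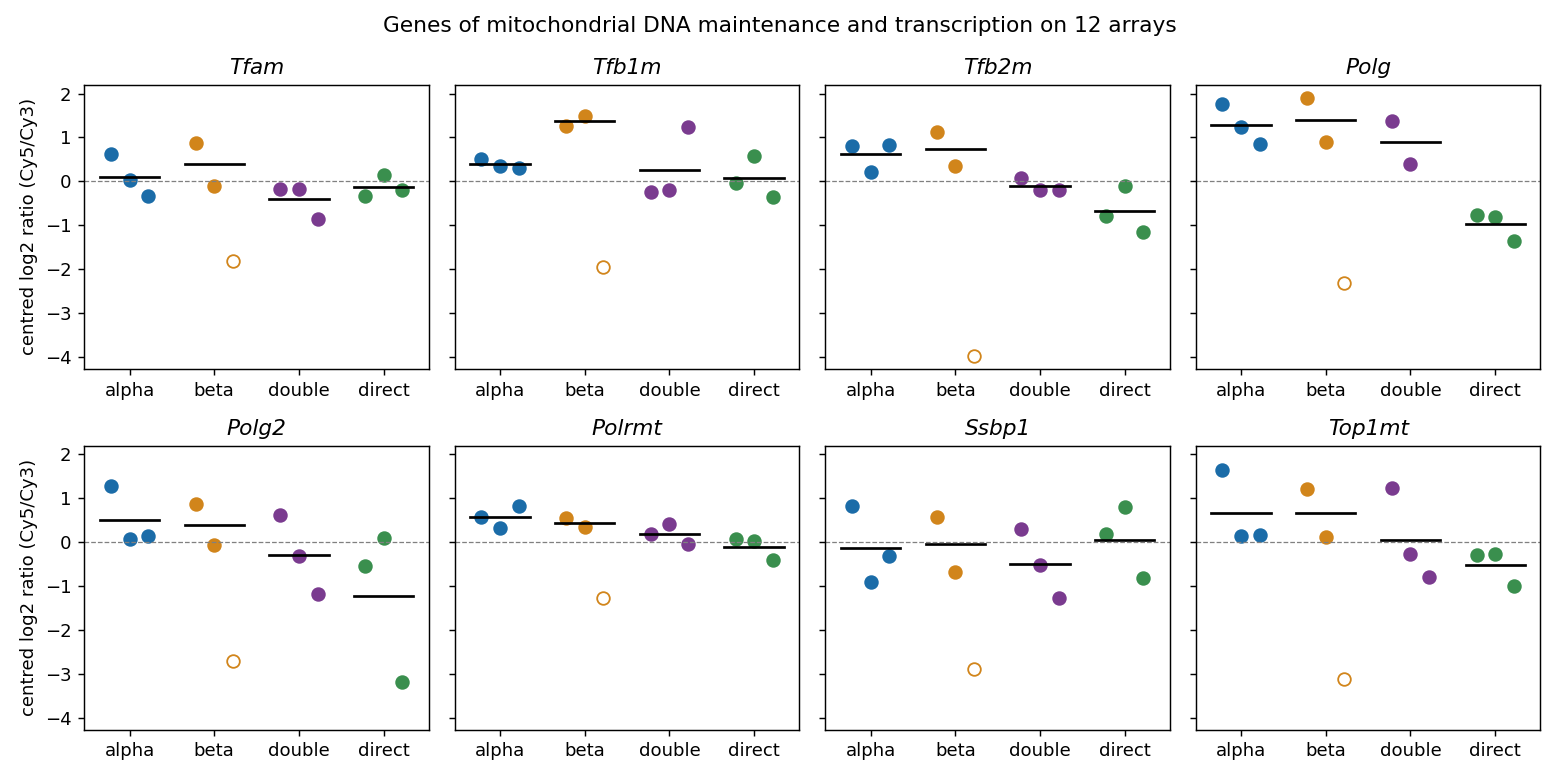
Centred log2 ratio (Cy5 over Cy3) of each of the 8 genes on the alpha, beta, double and direct arrays. Points are arrays in replicate order, the open point is beta 3, which was left out, bars are means of the other arrays. Polg lies above 0 on every alpha and double array with a value and on beta 1 and beta 2, and below 0 on beta 3 (-2.31) and on every direct array.

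Single arrays moved the genes together. All 8 lay above 0 on alpha 1 (median 0.81) and on beta 1 (median 0.99), and all 8 lay below 0 on beta 3 (median -2.50) and on direct 3 (median -0.91). The array numbered 1 gave the highest value of its group for 6 of 8 genes on the alpha, 7 of 8 on the beta and 6 of 8 on the double arrays, against 45.3%, 58.2% and 44.7% of 14896 genes with values on all these arrays. Among the 7 genes with values on 11 arrays, the 21 pairwise Pearson correlations ran from -0.05 (Tfb1m with Ssbp1) to 0.88 (Tfb2m with Polrmt) with a median of 0.57, a description over arrays that share groups and array trends. The genes of closest pattern over those arrays, among 13686, were Crip2 and Tspan2 for Tfam (r = 0.91 and 0.90), Il13ra1 and Tgm3 for Tfb1m (0.89 each), Pnrc2 and Ypel5 for Tfb2m (0.98 and 0.96), and Ube2v1 and Atp6v0a2 for Polrmt (0.96 each). Polg2 was followed closest by Znrd1 and Lage3 (0.99 and 0.98), Ssbp1 by Cbr4 and Clk1 (0.98 each) and Top1mt by Ndrg2 and Cilp (0.99 each).

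Polrmt, on chromosome 10 (79736125 to 79746604, GRCm38.p6), encodes the RNA polymerase of the organelle. It was at 0.58, 0.33 and 0.81 on the alpha, 0.56 and 0.34 on the beta, 0.19, 0.41 and -0.04 on the double and 0.07, 0.03 and -0.40 on the direct arrays. Every alpha and beta value lay above 0, and the direct values lay around it. The mean on the alpha arrays was 0.57 ± 0.24 (SD, n = 3), with a 95% interval of 0.07 to 1.08 and an adjusted p of 0.143 by limma. The mean on the double arrays was 0.19 ± 0.22 (SD, n = 3; adjusted p = 0.779), and the difference of double minus alpha, -0.39 with an interval of -1.10 to 0.33, did not pass (adjusted p = 0.623).

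Tfam, on chromosome 10 (71225468 to 71238328), encodes the protein that both packs mitochondrial DNA and starts its transcription. Averaged over its 3 probes it was at 0.61, 0.02 and -0.33 on the alpha, 0.87 and -0.10 on the beta, -0.16, -0.17 and -0.86 on the double and -0.32, 0.14 and -0.19 on the direct arrays. Only the double arrays kept 1 side of 0. The means were 0.10 ± 0.48, 0.39 ± 0.69, -0.40 ± 0.40 and -0.12 ± 0.24 in that order (SD, n = 3, but n = 2 on the beta arrays). None passed (adjusted p = 0.86, 0.654, 0.613 and 0.813). The 95% interval on the double arrays, -1.04 to 0.24, is that of an average over probes that differ, as shown next.

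The probes of Tfam ran opposite ways. The probe for GenBank entry U63712, which the authors' annotation describes with both the mitochondrial factor and a testis-specific HMG-box protein, was at -2.18, -0.94 and -1.60 on the alpha, -1.52 and -1.06 on the beta, -1.60, -0.30 and -0.16 on the double and 0.53, 0.62 and 1.45 on the direct arrays. It was below 0 on every array against floxed RNA and above 0 on every direct array. With probes fitted one by one, it fell by 1.57 on the alpha arrays (SE 0.36, adjusted p = 0.0244), where 11.5% of 29513 probes passed. This call was lost when a dye term was added, centring was skipped, beta 3 was kept or the group was fitted alone, and without alpha 1, 2 or 3 (adjusted p from 0.0561 to 0.169). Of the probes for RefSeq entry NM_009360, the probe A_52_P351785 was at 2.43, 1.16 and 0.19 on the alpha and 2.84 and 0.94 on the beta arrays. The other, A_51_P493720, was at 1.58, -0.14 and 0.41 on the alpha and 1.30 and -0.17 on the beta arrays. The probe of U63712 thus overlapped with neither of them on these arrays, and neither of them passed (adjusted p = 0.135 and 0.494 on the alpha arrays). The gap between the highest and the lowest probe mean of Tfam was 2.84 on the alpha and 3.18 on the beta arrays, a size that 3.23% and 1.46% of 6012 genes with several probes reached. In the authors' deposited tables the probe of U63712 stands among the lowered ones at 0.31, 0.35 and 0.71 of floxed control (alpha, beta, double), and A_52_P351785 stands in both the raised and the lowered table at 2.68, 3.62 and 0.31. The double mean of A_52_P351785, with the authors' standard error of 0.73, includes a negative ratio of -1.15 on double 3, which has no log. On double 1 and double 2 this probe was at 0.49 and 0.03.

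Tfb2m, on chromosome 1 (179528052 to 179546305), encodes the cofactor that POLRMT needs to open promoters, and its 2 probes, both for NM_008249 ran opposite ways. The probe A_52_P69325 was at 2.26, 1.47 and 2.31 on the alpha, 2.79 and 1.30 on the beta, 0.62, 0.00 and 0.32 on the double and -1.71, -1.17 and -2.17 on the direct arrays. Alpha and beta values all lay above every double value, and direct values all lay below 0. Its mean rose to 2.01 (SE 0.34, adjusted p = 0.0101) on the alpha arrays and fell by 1.68 (SE 0.34, adjusted p = 0.0213) on the direct arrays, where 7.57% of probes passed. The alpha call was lost when beta 3 was kept, centring was skipped, a dye term was added or the group was fitted alone, and without alpha 1 or alpha 3 (adjusted p from 0.0617 to 0.0848). The direct call was lost with beta 3 kept, by channel labels, with a dye term, with the group alone and without direct 1, 2 or 3 (adjusted p from 0.0502 to 0.244). On the beta arrays its mean of 2.05 did not pass (adjusted p = 0.153), nor did 0.31 on the double arrays (adjusted p = 0.73; 0.278% of probes passed there).

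The other probe of Tfb2m, A_51_P374499, ran the other way at -0.66, -1.04 and -0.64 on the alpha, -0.56 and -0.58 on the beta, -0.45, -0.39 and -0.71 on the double and 0.13, 0.96 and -0.14 on the direct arrays. It was below 0 on every array against floxed RNA, with a mean of -0.78 ± 0.23 (SD, n = 3) on the alpha arrays that did not pass (adjusted p = 0.0841). The probes differed by 2.79 on the alpha and 2.62 on the beta arrays, gaps that 3.54% and 3.66% of genes with several probes reached. Averaged over both, Tfb2m was at 0.80, 0.21 and 0.84 on the alpha, 1.12 and 0.36 on the beta, 0.08, -0.19 and -0.20 on the double and -0.79, -0.10 and -1.15 on the direct arrays. The gene's mean of 0.62 on the alpha arrays did not pass (95% interval 0.01 to 1.23, adjusted p = 0.189), nor did -0.68 on the direct arrays (-1.29 to -0.07, adjusted p = 0.153). The authors' deposited tables list the first probe as raised, at 3.68, 3.79 and 1.2, and the second as lowered, at 0.52, 0.56 and 0.68. The direction for Tfb2m thus differs between its probes, and which probe reads the transcript was not tested.

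**Figure D2:**
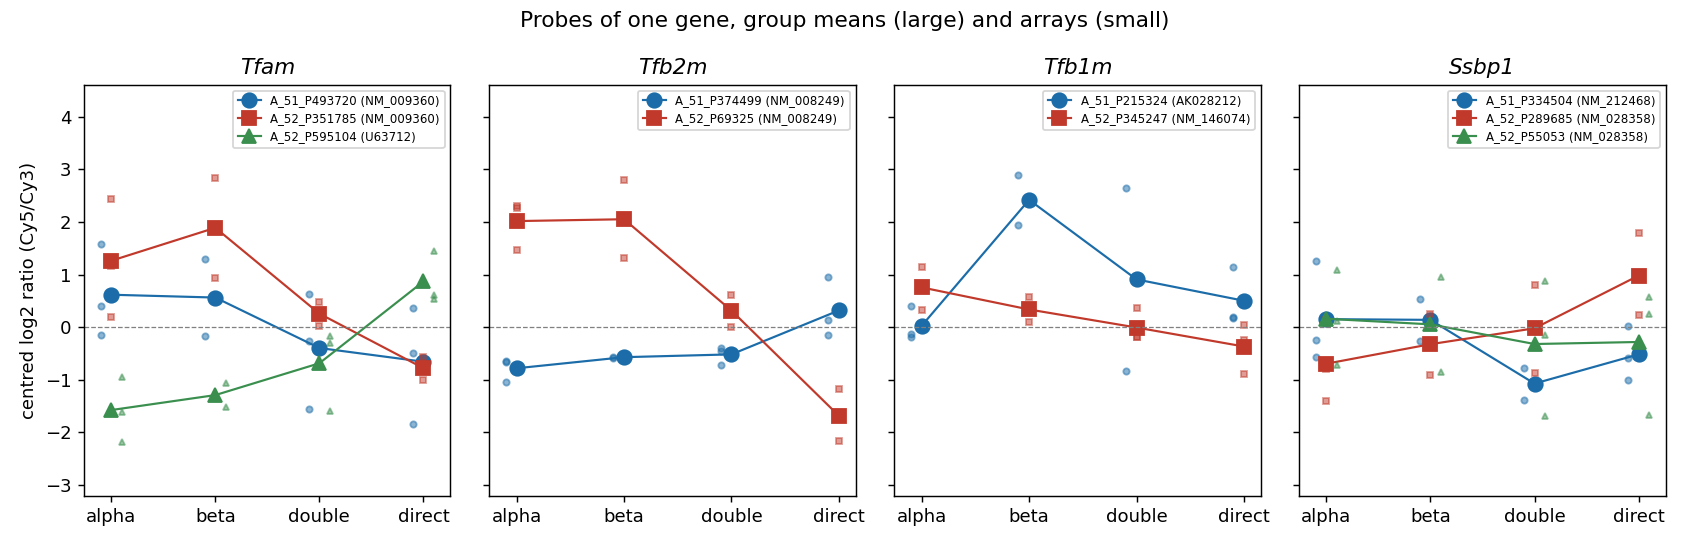
Centred log2 ratios of single probes of Tfam, Tfb2m, Tfb1m and Ssbp1 on the alpha, beta, double and direct arrays, without beta 3. Large symbols joined by lines are group means and small symbols are arrays. The group means of the Tfb2m probes stand on opposite sides of 0 in every group. The mean of the U63712 probe of Tfam stands opposite to the other probes of that gene on the alpha, beta and direct arrays. On the double arrays it is at -0.69, on the same side as A_51_P493720 at -0.40, with A_52_P351785 at 0.26.

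Tfb1m encodes a paralog of TFB2M that methylates the ribosomal RNA of the organelle. It was at 0.51, 0.36 and 0.30 on the alpha, 1.26 and 1.5 on the beta, -0.24, -0.19 and 1.23 on the double and -0.03, 0.59 and -0.36 on the direct arrays. Both beta values lay above every alpha value. The mean on the beta arrays, 1.38 ± 0.17 (SD, n = 2), did not pass (95% interval 0.52 to 2.24, adjusted p = 0.217). It came from the probe of AK028212, at 1.95 and 2.89 on these arrays, while the probe of NM_146074 was at 0.57 and 0.10. The probe of AK028212 had no defined value on double 2, and its ratios on alpha 1, alpha 3, double 1 and double 3 were fractions of small whole numbers, as dim or equal signals give.

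Polg, on chromosome 7 (79446231 to 79467911), encodes the catalytic subunit of the replicating DNA polymerase and was the 1 member that passed on the alpha arrays. It was at 1.75, 1.24 and 0.85 on the alpha, 1.90 and 0.89 on the beta, 1.38 and 0.40 on double 1 and double 2 and -0.76, -0.81 and -1.36 on the direct arrays, and its deposited ratio on double 3 was 0, so it has no log. Every value against floxed RNA was above 0, apart from -2.31 on beta 3, and every direct value was below. It rose 2.43-fold on the alpha arrays, a log2 ratio of 1.28 ± 0.45 (SD, n = 3), with a 95% interval of 0.56 to 1.99 and an adjusted p of 0.0428 by limma. The means on the beta (1.40, adjusted p = 0.221), double (0.89, adjusted p = 0.388) and direct arrays (-0.98, 95% interval -1.69 to -0.26, adjusted p = 0.0951) did not pass. The call on the alpha arrays was close to the threshold: it was lost without alpha 1, alpha 2, alpha 3, beta 1, beta 2, direct 1 or direct 2 (adjusted p from 0.0527 to 0.247) and kept without double 3 or direct 3. It was also lost without centring (adjusted p = 0.32), with a dye term (0.103), with beta 3 kept (0.392) and with the group fitted alone. Polg had too few values to be tested without double 1 or double 2, by channel labels, or with small-fraction ratios left out. The authors' deposited table lists Polg as raised, at 2.25, 2.28 and 1.08 of floxed control.

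Polg2, the accessory subunit that makes the polymerase processive, passed in no comparison. It was at 1.27, 0.07 and 0.14 on the alpha, 0.86 and -0.05 on the beta, 0.61, -0.31 and -1.17 on the double and -0.54, 0.09 and -3.19 on the direct arrays. The groups overlapped, alpha 1 and beta 1 were the high arrays, and direct 3 lay below all others. The mean of -1.21 ± 1.74 (SD, n = 3) on the direct arrays did not pass (adjusted p = 0.208) and was -0.23 without direct 3. A difference in response between Polg and Polg2 was not tested.

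Ssbp1, which coats single-stranded mitochondrial DNA, had no steady direction in the groups by title. It was at 0.83, -0.90 and -0.31 on the alpha, 0.58 and -0.67 on the beta, 0.30, -0.51 and -1.28 on the double and 0.20, 0.80 and -0.82 on the direct arrays. Every group straddled 0, and all groups overlapped. None of its means passed, and the 95% interval on the double arrays, -1.48 to 0.49, spans both directions. Among its 3 probes, A_51_P334504 was at -0.77 and -1.38 on double 1 and double 2 and had no defined value on double 3. The authors' deposited table lists it as lowered, at 1.19, 0.94 and 0.25 of floxed control (alpha, beta, double). The double mean there includes a negative ratio of -0.063 on double 3. On double 1, 2 and 3, A_52_P289685 was at 0.81, -0.01 and -0.86 and A_52_P55053 at 0.87, -0.14 and -1.69, so that probes differed in sign on double 1. The authors' deposited table also lists A_52_P289685 as lowered, at 0.61, 0.7 and 0.98 of floxed control (alpha, beta, double).

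Top1mt, which encodes the topoisomerase of the organelle, was carried by the arrays numbered 1. It was at 1.65, 0.14 and 0.17 on the alpha, 1.22 and 0.11 on the beta, 1.22, -0.27 and -0.79 on the double and -0.30, -0.26 and -1.0 on the direct arrays. The high values were alpha 1, beta 1 and double 1, and the other arrays against floxed RNA lay between -0.79 and 0.17. By title none of the means passed (alpha 0.65, adjusted p = 0.376). Those arrays are also the ones whose channel label reads PGC-1alpha -/- whatever the title, and their mean was 1.37 ± 0.25 (SD, n = 3), given as a description. Under those labels Ppargc1a itself was at -0.46 ± 0.71 (SD, n = 3) in the arrays labelled as its knockout. Top1mt was not alone in this split. Ssbp1 ran from 0.30 to 0.83 under the PGC-1alpha label and from -0.90 to -0.51 under the PGC-1beta label (n = 3 each). Polg2 ran from 0.61 to 1.27 against -0.31 to 0.07, and Polg from 1.38 to 1.90 against 0.40 to 1.24. Tfam, Tfb1m, Tfb2m and Polrmt overlapped between these labels.

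The direct arrays give a second route from the alpha to the double knockout, with no array in common with the route through floxed RNA. For the probe A_52_P69325 of Tfb2m, double minus alpha through floxed control was -1.70 (SE 0.48) and the direct arrays gave -1.68 (SE 0.34). For the U63712 probe of Tfam the values were 0.89 (SE 0.51) and 0.87 (SE 0.36), and for Polg -0.39 (SE 0.50) and -0.98 (SE 0.32). The 2 routes had the same sign for 14 of 14 member probes, against 72.9% of all probes, and for 6 of 8 members as gene means, against 73.2% of all genes. The 14 probes come from 8 genes and are not independent, and by gene the share was close to that of all genes. The part of trends shared by arrays of both routes, such as that of dim probes, was not tested. The difference between the routes, which also estimates a dye effect per gene, passed for 0 of 16526 genes in limma (569 at an unadjusted p under 0.05, none of the 8 members). Its interval was wide, from -1.02 to 1.09 around 0.04 for Tfb2m and from -1.92 to 0.75 around -0.59 for Polg. Double minus alpha through floxed control passed for none of the 8 members by limma (0.0121% of genes passed; none of the 8 at an unadjusted p under 0.05), and double minus beta for none (0.00605% of genes passed; Tfb1m was at -1.11, unadjusted p = 0.04996, adjusted p = 0.641).

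**Figure D3:**
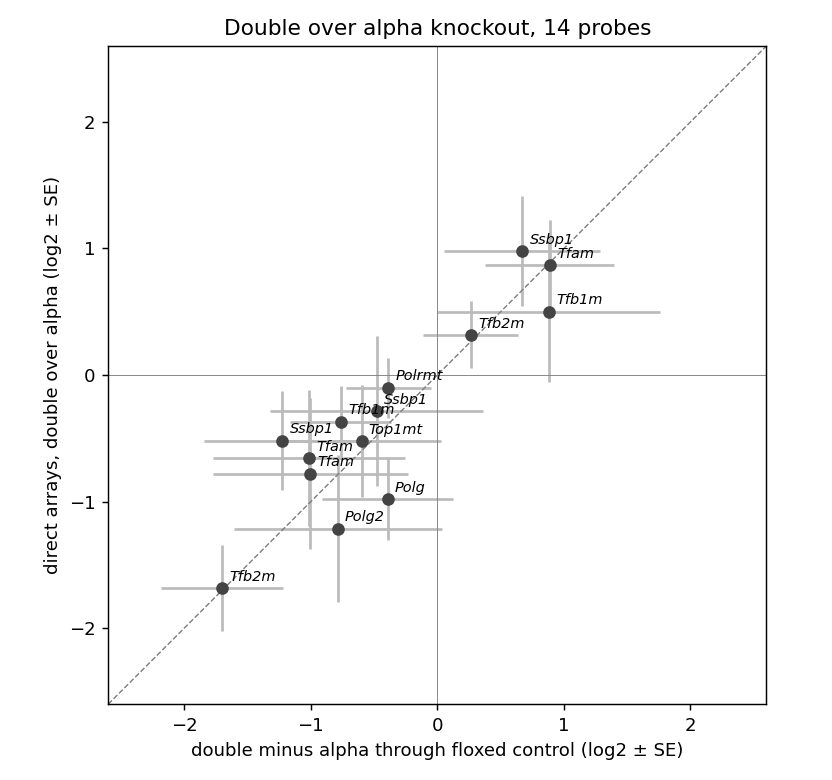
Log2 ratio of the double over the alpha knockout for the 14 member probes, through floxed control RNA (horizontal) and on the direct arrays (vertical), with standard errors from the fit as bars and the line of equality dashed. All 14 points have the same sign on both axes, and the lowest, A_52_P69325 of Tfb2m, lies on the line at -1.70 and -1.68.

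The wider machinery was read from 6 more lists, with 83 genes tested. On the alpha arrays 8 rose and 2 fell, where 5.69% of all genes rose and 2.12% fell. On the beta arrays 0 passed in limma (9 at an unadjusted p under 0.05), and on the double arrays 0 passed (9 unadjusted). On the direct arrays 1 rose and 11 fell, where 2.05% of all genes rose and 4.83% fell. The lists include the targeted genes, so Ppargc1a counts among the alpha falls and Ppargc1b among the direct falls. Those falls concern the genotypes and are no result about the machinery. Of these calls and that of Polg, 30 in all with the marker genes below, 0 passed when beta 3 was kept and 0 when each group was fitted alone.

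Replication and repair genes outside the members came to 14 tested. Endog, which encodes a nuclease of the intermembrane space, was at 2.03, 2.00 and 2.02 on the alpha, 1.97 and 1.46 on the beta, 0.60, -0.39 and -0.69 on the double and -1.64, -2.08 and -2.59 on the direct arrays. Alpha and beta values did not overlap with the others, and direct values lay below all others. Endog rose by 2.02 (adjusted p = 0.00867) on the alpha and fell by 2.10 (adjusted p = 0.0109) on the direct arrays. Of these 14 genes, 2 rose on the alpha arrays, the second being the base excision repair nuclease Apex1 at 1.56 (adjusted p = 0.0409), and the median was 0.35. On the direct arrays 3 of 14 fell, with a median of -0.41, and beside Endog these were the uracil glycosylase Ung at -2.0 and the oxidized-guanine glycosylase Ogg1 at -1.13 (adjusted p = 0.0271 and 0.0178).

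Among the 5 transcription elongation and termination genes tested, 1 rose and 1 fell on the alpha arrays, and 1 rose on the direct arrays. Mterf2, of the family of mitochondrial termination factors, was at -1.40, -1.85 and -1.41 on the alpha, -1.05 and -1.24 on the beta, -1.41, -1.16 and -1.20 on the double and 0.69, 1.35 and 1.10 on the direct arrays. Every value against floxed RNA was below -1 and every direct value above 0. It fell by 1.55 on the alpha arrays (adjusted p = 0.00878) and rose by 1.05 on the direct arrays (adjusted p = 0.0279), although its double and alpha means, -1.26 and -1.55, lay close together. Its relative Mterf1b rose by 1.21 on the alpha arrays (adjusted p = 0.0397). The medians of this list were 0.13 on the alpha and 0.03 on the direct arrays.

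The nucleoid list, proteins held to anchor or service the packed genome, had medians of 0.72 over 7 genes on the alpha and -1.24 on the direct arrays, or 0.45 and -0.92 over 5 genes without small-fraction ratios. The membrane ATPase Atad3a was at 1.39, 2.12 and 1.32 on the alpha, -0.59 and 1.40 on the beta, -0.59, -0.51 and -0.68 on the double and -1.34, -1.92 and -1.51 on the direct arrays. Its alpha and direct values did not overlap with the double values. It rose by 1.61 on the alpha (adjusted p = 0.0262) and fell by 1.59 on the direct arrays (adjusted p = 0.028). The prohibitin Phb2 rose by 1.30 on the alpha arrays (adjusted p = 0.0454). Of the 14 genes of nucleotide supply, the pyrimidine carrier Slc25a33 rose by 1.54 on the alpha arrays (adjusted p = 0.0477), and 0 passed on the direct arrays.

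Downstream of transcription, 24 genes of RNA processing and stability had medians of 0.36 on the alpha and -0.54 on the direct arrays. Supv3l1, the helicase of the RNA degradation complex, was at 1.69, 1.75 and 1.41 on the alpha, 0.72 and 0.63 on the beta, -0.49 and -0.16 on double 1 and double 2 and -2.32 and -1.92 on direct 1 and direct 2, with no defined value on double 3 and direct 3. The groups did not overlap, in the order alpha, beta, double, direct from high to low. It rose by 1.62 on the alpha (adjusted p = 0.0122) and fell by 2.12 on the direct arrays (adjusted p = 0.0127). On the direct arrays the FASTK-family genes Fastk, at -1.34, and Tbrg4, at -1.14, fell too (adjusted p = 0.0383 and 0.0256). The 15 genes encoded by mitochondrial DNA itself were not analysed here.

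Among the regulators, 19 were tested; 1 rose and 1 fell on the alpha arrays, and 4 fell on the direct arrays, 2 of them known partners of PGC-1 (Gabpa and Esrra). Gabpa, the DNA-binding subunit of GABP, was at 1.25, 0.66 and 1.43 on the alpha, 0.96 and 0.45 on the beta, -0.09, -0.18 and 0.03 on the double and -1.73, -0.69 and -2.87 on the direct arrays. The groups against floxed RNA separated into alpha and beta above double, and direct values lay below all of them. Gabpa fell by 1.76 on the direct arrays (adjusted p = 0.0233), as did Esrra, the estrogen-related receptor alpha, by 1.47 (adjusted p = 0.0197), Ppargc1b by 1.32 (adjusted p = 0.0439) and the thyroid hormone receptor Thra by 1.17 (adjusted p = 0.033). On the alpha arrays Ppargc1b rose by 1.37 (adjusted p = 0.0387) and Ppargc1a fell by 1.55. Against floxed RNA the double arrays had Ppargc1b at a mean of 0.29, so it was not lowered there. Its fall on the direct arrays is relative to alpha RNA, where it was raised.

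**Figure D4:**
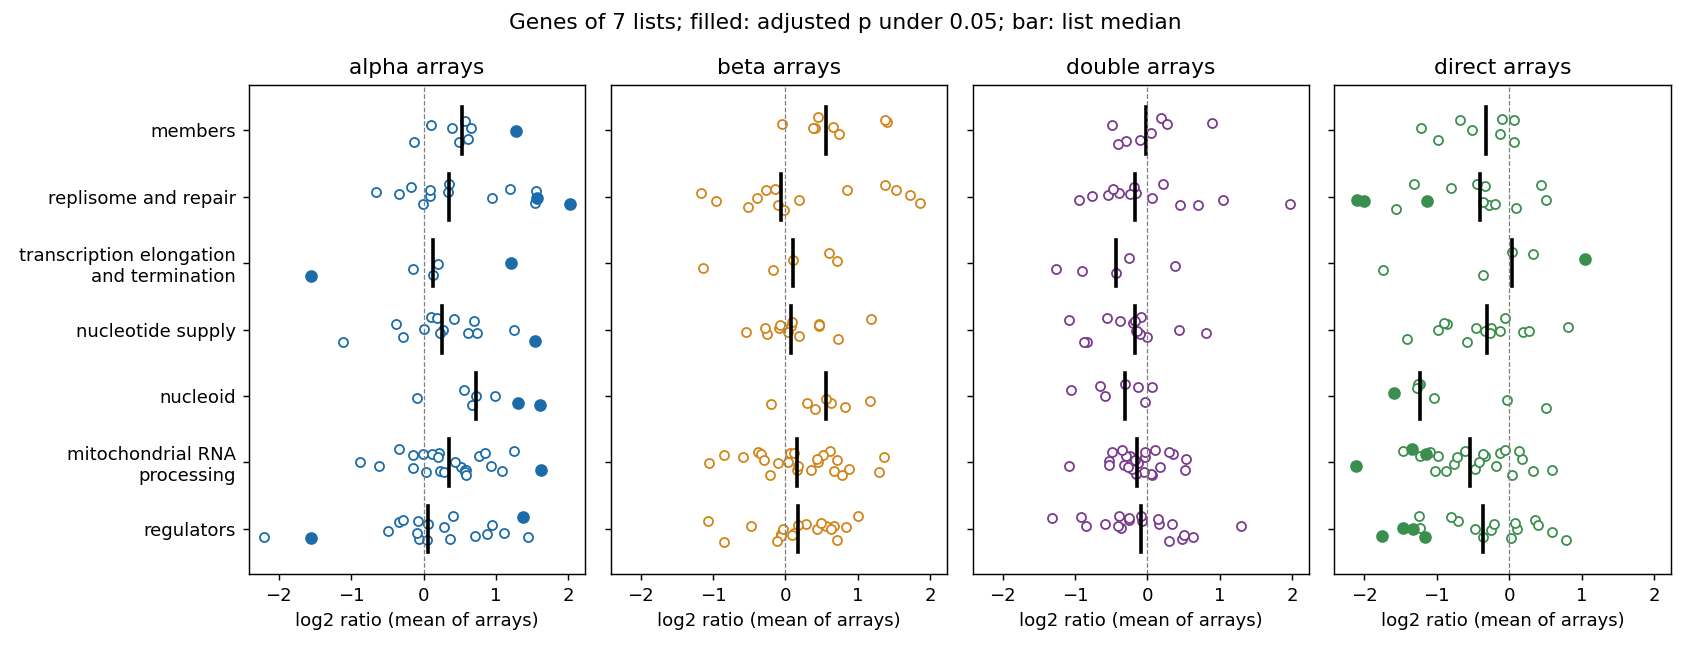
Log2 ratio of each tested gene of the members and 6 further lists on the alpha, beta, double and direct arrays. Filled points passed an adjusted p of 0.05 in the limma fit and bars are list medians; vertical scatter only separates points. Medians lie to the right of 0 for all 7 lists on the alpha arrays and to the left for 6 of 7 on the direct arrays.

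Markers of cell types moved in the same comparisons, and their part in the values above was not tested. Of 31 marker genes tested, 3 rose on the alpha arrays, the myofibre genes Acta1 (1.31, adjusted p = 0.0188) and Mb (1.29, adjusted p = 0.0392) and the red cell gene Hba-a2 (1.78, adjusted p = 0.0196). On the direct arrays the myofibre genes Acta1 (1.70), Myh4 (2.39) and Tnnt3 (1.30) rose and the endothelial gene Cldn5 fell by 2.09 (adjusted p = 0.0125, 0.0147, 0.0311 and 0.0268). The other myofibre markers did not pass there: Ckm was at -0.65, Mb at -0.12 and Myh1 at 0.08. Of the other endothelial markers, Cdh5 was at -1.37, Esam at -0.92 and Tek at -0.10, while Pecam1 ran the other way at 1.93. Through floxed control, double minus alpha ran opposite to the direct arrays for Acta1 (-0.45) and Tnnt3 (-0.39). It had the same sign for Myh4 (1.52) and Cldn5 (-1.60). The difference between the routes was above 0 for 6 of 6 myofibre genes (median 1.22, all genes 0.05), and 0 passed. The part of a dye effect in it was not tested. On the alpha arrays Myh4 was at -0.82 and Pecam1 at -2.05, opposite to the medians of their lists. The array medians of the 6 myofibre markers ran from 0.58 to 1.14 on the alpha and from 0.53 to 0.92 on the direct arrays, while those of the 5 endothelial markers ran from 0.41 to 0.72 and from -1.11 to -0.64. Red cell markers ran from 0.61 to 1.97 on the alpha arrays, from 1.29 to 1.57 on the beta arrays and from -0.34 to 0.11 on the direct arrays. Macrophage, fibroblast, adipocyte and Schwann cell markers held no gene that passed, with list medians of 0.07, 0.14, 0.47 and -0.93 on the alpha arrays. Since ratios carry no levels, the muscle label could not be set against marker levels.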

How the data were processed

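Total RNA, extracted with Trizol per the labels' protocols, was hybridised to Agilent arrays with the knockout in Cy5. The deposited series matrix holds linear ratios of Cy5 over Cy3 for 40928 probes; a scaling factor per array and a repeated maximum were read from the values, while for scanner, background correction and scaling the methods were not given in the sources used here. Tables of mean fold ratios deposited by the authors were used only for comparison. Ratios at or under 0 or at the repeated maximum were set to undefined, log2 was taken, each array was centred on its median, and probes of 1 gene were averaged. GEO's platform annotation gave 1 symbol to 32443 probes, several to 44 and none to 8441. The scale and direction follow the titles and dye labels; how the authors centred the values is unknown.

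Genes with values on at least 2 arrays of each group were fitted with limma 3.58.1 in R 4.3.3 on 11 arrays, with Benjamini-Hochberg adjustment over all genes and a threshold of 0.05; single probes were fitted the same way, an alternative chosen after seeing the data. Files were read with python 3.11.15. The number of arrays limits the precision. On simulated data of 16526 genes, changes of 1 and 2 on the log2 scale were recovered at 6% and 51% on the alpha, 1% and 39% on the beta, 8% and 62% on the double and 9% and 55% on the direct arrays, with 4 or 5 false calls. The simulated alpha and direct fits made 61 and 68 calls, against 1292 and 1137 in the real fits, so these shares do not give the recovery of the real fits. Alternatives were all 12 arrays, no centring, 2 treatments of dim values, the median over probes, channel labels, a replicate block, a dye term, array weights, each group alone and each array left out. The members and gene lists were chosen with earlier results of these data known. The genes named are the members, every listed gene that passed, Ppargc1a and Ppargc1b as targeted genes, and the other myofibre and endothelial markers. For each member with all 11 values, the 2 genes of highest Pearson correlation are named too. Marker lists in which none passed are given by their medians. Promoter windows came from RefSeq (GRCm38.p6).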

Additional observations from a re-analysis of the deposited data

Results flagged for a closer look

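Among the 8 members, their probes and the listed genes that passed in some comparison, 5 genes split by knockout with beta 3 left out: every array of 1 knockout lay above 0 and every array of another lay below 0, and in each case the limma test of the difference did not pass. Atad3a was at 1.61 on the alpha and -0.59 on the double arrays, a difference of -2.20 (adjusted p = 0.173). Supv3l1 was at -0.32 on the 2 double arrays with a value, a difference of -1.94 from the alpha (adjusted p = 0.166) and of -0.996 from the beta arrays (adjusted p = 0.626). Esrra went from 0.43 on the beta to -0.84 on the double arrays, a difference of -1.27 (adjusted p = 0.55), and Thra from 0.09 to -0.40, a difference of -0.49 (adjusted p = 0.788); on beta 3, left out here, Esrra was at -0.45 and Thra at -0.79, the same side as the double arrays. Myh4, a myosin of fast fibres, ran the other way: at 0.69 on the double arrays it was 1.52 above the alpha (adjusted p = 0.349) and 1.23 above the beta arrays (adjusted p = 0.697). None of the 8 members or their probes showed such a split, and listed genes that passed nowhere were not screened.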

How the results depend on the processing

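Counts of genes that passed moved with many choices. With all 12 arrays limma called 0 genes on the alpha, double and direct arrays (2376, 1142 and 2677 at an unadjusted p under 0.05), and with each group fitted alone 0, 0 and 0 (5693, 992 and 3726). Without centring the counts were 88, 17 (4 up, 13 down) and 736. With a dye term they were 12, 0 and 2, and with channel labels 2137, 0 and 73, with 3 on the beta arrays. Leaving out dim probes gave 2183, 235 and 1814 with 1 on the beta arrays, and leaving out ratios that were fractions of small whole numbers gave 206 on the double and 1 on the beta arrays. Array weights on 12 arrays, whose estimation stopped before converging, gave 5511, 14103, 1300 and 2075 on the alpha, beta, double and direct arrays, or 32.4%, 83%, 7.65% and 12.2% of genes, so passing there says little. The replicate numbers were not taken as pairs, since not every same-numbered pair correlated above 0.1 in its deviations (from -0.30 to 0.43, median 0.14, against a median of -0.08 for different numbers). Among arrays against floxed RNA, 7 of 7 such pairs were above 0 and 6 above 0.1, from 0.07 to 0.43. With the numbers as a block, the fit called 2099 on the alpha, 0 on the beta, 58 on the double and 1725 on the direct arrays, Polg passed on the direct arrays at -0.98 (adjusted p = 0.0459), and Polg2 on the beta arrays was at -0.13. Leaving out 1 array at a time gave 0 to 1781 on the alpha (0, 0 and 1 without alpha 1, 2 and 3, 672 and 693 without beta 1 and 2), 13 to 78 on the double and 0 to 1517 on the direct arrays (0 without direct 3, 82 without direct 2, 668 and 592 without alpha 2 and 3, 677 and 682 without beta 1 and 2). The causes were not tested.

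Of the 30 named calls, 10 passed without centring, 1 with a dye term, 4 of 27 by channel labels and 30 with the median over probes or the block. Without alpha 1, 2 and 3, 14, 13 and 11 of 30 passed, without beta 1 or beta 2 20, without double 2 19 of 27, and without direct 1, 2 and 3 21 of 28, 12 of 28 and 14 of 30. Of 4 probe calls of members, 0 passed with all 12 arrays, a dye term or each group alone, 1 without centring and 4 with the block. Directions turned as follows. With all 12 arrays, beta values were Tfam -0.34, Tfb2m -0.83, Polg2 -0.63, Polrmt -0.13 and Top1mt -0.59. Without centring, Tfam was at -0.0841 on the alpha, Top1mt at -0.0149 on the double and Tfb1m and Ssbp1 at -0.40 on the direct arrays, and the difference between routes was -0.20 for Tfam, -0.39 for Tfb1m, -0.54 for Tfb2m, -0.29 for Polrmt, -0.15 for Ssbp1 and -0.50 for Top1mt. Without small-fraction ratios, Tfam was at -0.30 on the alpha and 0.10 on the direct, Polrmt at 0.0164 on the direct and Tfb1m at -0.0235 on the double arrays, with routes differing by -0.13 for Tfb2m and -0.0032 for Top1mt. Without dim probes, Tfam was at -0.11 on the alpha and 0.11 on the direct and Polrmt at 0.13 on the direct arrays. The median over probes put Ssbp1 at 0.0427 on the alpha and -0.0614 on the direct arrays. By channel labels, Ssbp1 was at 0.57 and Mterf1b at -0.0355 on the alpha, Tfam at -0.0831, Polg2 at -0.10 and Top1mt at -0.0086 on the beta, Tfb2m at 0.32 and Top1mt at -0.31 on the double arrays, with routes differing by -0.19 for Tfb1m, -0.34 for Tfb2m, 0.22 for Polg2 and -0.0452 for Polrmt. With a dye term, Tfam was at -0.27, Mterf1b at -0.0765, Acta1 at -0.84 and Mb at -0.26 on the alpha, Polg2 at 0.14, Polrmt at -0.10 and Top1mt at -0.0208 on the double, and Tfb1m at -0.12, Ssbp1 at -0.37, Acta1 at -0.45 and Tnnt3 at -0.39 on the direct arrays. With array weights, Tfam was at -0.0711 on the alpha and -0.10 on the beta, Polg2 at -0.0522 on the beta, Tfb1m at -0.0398 and Top1mt at -0.15 on the double arrays, with routes differing by 8e-04 for Polg2.

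Leaving out 1 array at a time, the values that turned ran from -0.16 to 0.32 for Tfam and -0.60 to 0.26 for Ssbp1 on the alpha arrays. On the beta arrays they ran from -0.10 to 0.87 for Tfam, -0.0541 to 0.86 for Polg2 and -0.67 to 0.58 for Ssbp1, and on the double arrays from -0.21 to 0.52 for Tfb1m, -0.74 to 0.15 for Polg2 and -0.53 to 0.48 for Top1mt. On the direct arrays they ran from -0.19 to 0.28 for Tfb1m, -0.18 to 0.051 for Polrmt and -0.31 to 0.50 for Ssbp1. Differences between routes ran from -0.0695 to 0.67 for Tfb1m, -0.26 to 0.27 for Tfb2m, -1.08 to 0.56 for Polg2, -0.0507 to 0.86 for Ssbp1 and -0.42 to 0.66 for Top1mt.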
